A study of Mus musculus with 18 samples.

Results

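The interferon pathway genes described here were 46 genes taken by name as a fixed list, from the interferon receptors to the products that act on viruses and on antigens. The list was made with earlier results of these data known. All 46 were found among the 35865 genes listed under a single name in the RNA-seq table, and all 46 passed the filter on low values (TPM of 1 or above in at least 2 of the 4 libraries), so none was left out. TPM is a relative transcript level in which both gene length and library size have been divided out. RNA was measured in regulatory T cells (Tregs), sorted as YFP+ cells from the CD4+ T cells of the spleen, of 2 Chd8-/- and 2 WT mice. CHD8 is an ATP-dependent chromatin remodeler. In the Chd8-/- mice, labelled CHD8Flox/FloxFoxp3YFP-Cre, a Cre recombinase fused to YFP is made from the X-linked Foxp3 locus, so Chd8 is deleted in cells that express Foxp3. The labels of the WT mice read CHD8flox/floxFoxp3YFP-Cre/+, whereas the methods of the study describe WT mice as Chd8+/+ with the same Cre. The grouping followed the W and K of the sample titles. Both genotypes thus carry Foxp3-driven YFP-Cre, but only the WT labels add /+, so the number of Cre copies may differ between the genotypes. Every library of both also carries the treatment label Poly IC injection, which the methods of the study do not describe for these mice. Poly IC is a synthetic RNA that induces interferon. No library without that label was analysed here, so neither the size of an interferon response nor its dependence on genotype was measured. By the methods of the study the mice were young, some weeks old, and the WT mice were littermates.

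Type I interferons (the interferon-α family and interferon-β) bind the receptor made of IFNAR1 and IFNAR2. The kinases JAK1 and TYK2 then phosphorylate STAT2, which is part of the complex ISGF3 with IRF9. ISGF3 binds a DNA element called the interferon-stimulated response element (ISRE). Interferon-γ, the type II interferon, binds IFNGR1 and IFNGR2 and acts on another element, the gamma-activated site (GAS). Many interferon-stimulated genes answer to both kinds of interferon, so a member cannot be ascribed to either from its name. In Tregs these pathways are known to affect proliferation and the stability of suppressive function.

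The letters of both elements were looked up in the promoters of the members, from 250 bases before to 50 bases after the start of each gene in RefSeq (GRCm38.p6). The ISRE was searched as GAAANNGAA and the GAS as TTCNNNGAA, on both strands, with overlapping matches allowed. The following stretches are printed because they lie in the promoters of the GTPase genes and of the antiviral and OAS genes that lay on opposite sides of the comparison. Isg15 and Irf1, well-known targets of the ISRE and the GAS, are shown beside them. Each runs 5′ to 3′ on the strand that matches, capitals mark the ISRE letters and any overlapping repeat of them, and coordinates are GRCm38 with the strand in words. Each is 1 of the matches of its gene.
Gbp2, chr3:142620595-142620623, minus strand: ttaagacagtGAAAGTGAAactaaaagag
Gbp3, chr3:142559996-142560024, minus strand: agggatctggGAAATAGAAACTGAAactg
Gbp7, chr3:142530274-142530302, minus strand: atggagaactGAAACTGAAactgcacaca
Igtp, chr11:58199512-58199540, plus strand: tctaggaactGAAACTGAAagctgttcgg
Irgm1, chr11:48871432-48871460, minus strand: cctgtttcaaGAAATAGAAACCGAAactg
Rsad2, chr12:26456553-26456581, plus strand: tctgttttctGAAAATGAAagttggacca
Bst2, chr8:71537584-71537612, minus strand: ggcattccagGAAAATGAAACTGAAaggc
Ifit1, chr19:34640795-34640823, minus strand: tcagcagtgaGAAACTGAAactgagactg
Ifit3, chr19:34583398-34583426, minus strand: gaggaaagtaGAAACTGAAacagacttaa
Oas3, chr5:120777716-120777744, minus strand: gcagggaggaGAAAACGAAAGTGAAggga
Isg15, chr4:156200872-156200900, minus strand: gtagGAAAAGGAAACCGAAACAGAAaata
In the next lines capitals mark the GAS letters.
Irf1, chr11:53769914-53769942, plus strand: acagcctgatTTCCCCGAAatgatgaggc
Igtp, chr11:58199501-58199529, plus strand: aactagccatTTCTAGGAActgaaactga
Bst2, chr8:71537590-71537618, minus strand: tctaggggcaTTCCAGGAAaatgaaactg

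A promoter was matched for 36 of the 46 members. Dhx58, Zbp1, Oas2, Mx1, Mx2, Rtp4, Usp18, Parp9, Parp14 and Iigp1 had no entry. ISRE letters were found in 20 of the 36 promoters (55.6%), against 9.76% of the promoters of 27025 genes and 8.93% of those of the 10439 genes tested that had a promoter. GAS letters were found in 11 (30.6%), against 9.55% and 8.67%. Both were present in 5 members (13.9%), against 1.42% of all genes. The share with ISRE letters was 5 of 10 (50%) among members with a promoter that were higher in both Chd8-/- libraries than in both WT libraries and 11 of 19 (57.9%) among those that were lower. GAS letters were found in 4 of the 10 (40%) and 5 of the 19 (26.3%). The promoter letters thus occurred on both sides of the comparison, and in Igtp and Bst2, which differed in opposite directions, GAS and ISRE letters lay close together and, in Bst2, overlapped. A match is a description of letters and not of binding.

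Chd8, the targeted gene, was listed at 14.9 and 11.4 TPM in the Chd8-/- libraries against 24.7 and 27.6 TPM in the WT libraries. Both Chd8-/- values lay below both WT values (log2 fold change -0.95 ± 0.29 (SE), limma adjusted p = 0.455). The study describes a male and a female mouse of each genotype, but Xist, expressed from the inactive X chromosome of females, was between 500.2 and 843.3 TPM in all 4 libraries, and Ddx3y, Kdm5d, Uty and Eif2s3y of the Y chromosome were at 0 in all 4. The Treg factor Foxp3 was at 232.1 and 205.3 TPM in Chd8-/- and 202.8 and 215.4 TPM in WT libraries, levels that overlapped. Chd8-/- replicate 2 stood apart from the other libraries. Its 10 myeloid markers summed to 1734 TPM, of which Lyz2, the lysozyme of macrophages, made up 1360.3, against 55.2 to 368.5 TPM in the other libraries. Its 6 erythroid markers summed to 1990 TPM, against 8.7 to 385.2, and its B cell markers to 408.1 TPM, against 110.5 to 125.3. Chd8-/- replicate 1 had the lowest myeloid and erythroid sums, with 5 of the 10 myeloid markers at 0. The sums of the Chd8-/- libraries therefore lay on both sides of those of the WT libraries. Their part in the results below was not tested. For the members, their roles and the other gene lists, counts of genes without overlap that changed with Chd8-/- replicate 2 left out are given beside the main count. These counts can only stay or grow, since fewer libraries have to be separated. The share of all genes without that library is not given, so they cannot be set against all genes.

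**Figure D1:**
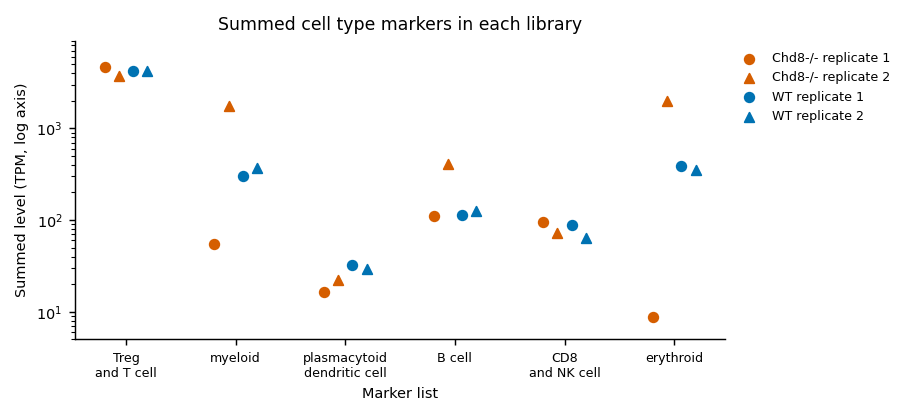
Summed TPM (log axis) of the markers of each cell type, with a point for each library. Chd8-/- replicate 2 is the highest for the myeloid, B cell and erythroid lists and Chd8-/- replicate 1 the lowest for the myeloid and erythroid lists, while the Treg and T cell sums lie between 3676 and 4638 TPM.

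The question was how the interferon genes differed between Chd8-/- and WT Tregs. The study reports early, fatal inflammation in Chd8-/- mice, with more interferon-γ in stimulated T cells, Tregs among them. Deletion and inflamed host were not separated in these libraries, and the part of either was not tested. The members did not move as a block. Listed genes for antiviral products and the OAS enzymes were mostly lower in the Chd8-/- libraries, and those of the GTPase and antigen transport role were higher. Among the 46 members, 24 were lower in both Chd8-/- libraries than in both WT libraries and 11 were higher in both. The levels of the other 11 overlapped between the genotypes. Without Chd8-/- replicate 2 these counts were 27 lower and 12 higher. Among all 15240 genes tested, 27.8% were lower and 14.8% were higher without overlap with all 4 libraries. The counts of the members (52.17% and 23.91%) and those by role and list below have to be read against these shares. Members and lists were chosen with earlier results of these data known, so such counts are descriptions. No such share is given with Chd8-/- replicate 2 left out, so the counts of 27 and 12 have no such measure. A log2 fold change of -1 or less was found in 11 members, against 11.6% of all genes, and of 1 or more in 1 member, Gbp2, against 5.12%, and without Chd8-/- replicate 2 in 9 and 2 members. The median log2 fold change was -0.36 over the members and -0.15 over all genes, and without Chd8-/- replicate 2 it was -0.21 and -0.04. With 2 libraries a genotype, the smallest p that an exact permutation test allows is 0.333, and limma with Benjamini-Hochberg adjustment called 0 members, as it called 0% of all genes. The lowest adjusted p of a member was 0.373 (Gbp2). At an unadjusted limma p under 0.05 there were 12 members lower, against 6.3% of all genes, and 4 higher, against 3.9%. None of the differences below thus passed the test, and fold changes are on the log2(TPM + 1) scale, which understates the change of genes with low levels. In bulk RNA, fewer cells of a type and less RNA per cell cannot be told apart.

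**Figure D2:**
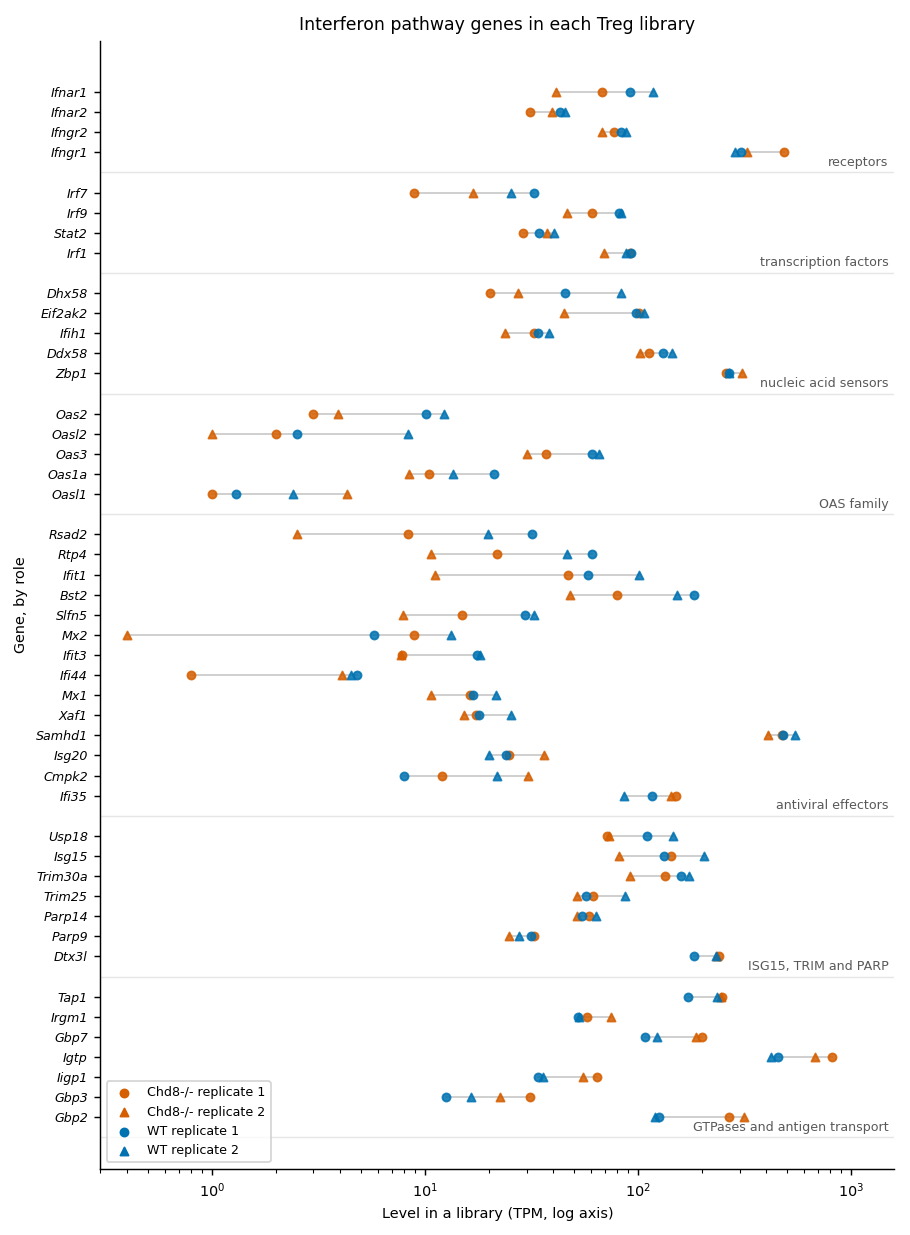
TPM (log axis) of the 46 members, ordered by role and by change, with a point for each library and a grey line over the range of a gene. The Chd8-/- points lie left of the WT points for most OAS enzymes and antiviral effectors and right of them for all 7 genes of the GTPase and antigen transport role.

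Among the 4 receptor genes, the chains of the type I receptor and IFNGR2 were lower and IFNGR1 was higher in Chd8-/- Tregs. Ifnar1, the type I receptor chain that binds TYK2, was at 68.1 and 41.1 TPM in Chd8-/- libraries against 91.7 and 117.6 TPM in WT libraries (log2 fold change -0.96 ± 0.33 (SE), limma adjusted p = 0.472). Ifnar2, the chain that binds JAK1, was at 31.0 and 39.7 TPM against 43.1 and 45.5 TPM. These chains did not overlap between the genotypes, although the difference of Ifnar2 (-0.33 ± 0.24) was small. Ifngr1, the ligand-binding chain for interferon-γ, was at 484.5 and 324.5 TPM against 304.3 and 286.5 TPM (0.42 ± 0.25, adjusted p = 0.619). Its partner Ifngr2 was at 77.5 and 67.5 TPM against 83.3 and 87.7 TPM. Ifngr1 was the receptor gene with the highest level in every library and the only one of the 4 higher in both Chd8-/- libraries. Its nearest values between the genotypes differed by less than its Chd8-/- replicates. The log2 ratio of Ifngr1 to Ifnar1 was 2.81 and 2.95 in the Chd8-/- libraries and 1.72 and 1.28 in the WT libraries, a ratio chosen after the values were seen. Ifnar2, Ifnar1 and Ifngr2 are neighbours on chromosome 16 (chr16:91372783-91564007, GRCm38), and all 3 were lower without overlap. Among all genes tested, 27.8% were lower and 14.8% higher in this way.

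Of the 4 transcription factors, Irf7 and Irf9 were lower without overlap (3 of the 4 without Chd8-/- replicate 2), and none was higher. Over all genes, 27.8% were lower and 14.8% higher without overlap. Irf7, which drives the second wave of type I interferon and is itself induced by interferon, was at 8.9 and 16.9 TPM in Chd8-/- libraries against 32.4 and 25.5 TPM in WT libraries (-1.16 ± 0.40, limma adjusted p = 0.477). Irf9, the DNA-binding subunit of ISGF3, was at 60.9 and 46.7 TPM against 81.8 and 83.5 TPM (-0.62 ± 0.23, adjusted p = 0.487). Both WT values of Irf9 lay close together and above both Chd8-/- values. Stat2, another subunit of ISGF3, was at 28.9 and 37.3 TPM against 34.5 and 40.4 TPM. Irf1, a factor induced by interferon-γ, was at 91.5 and 69.7 TPM against 93.3 and 87.6 TPM. For Stat2 and Irf1 the genotypes overlapped.

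Of the 5 sensors of foreign nucleic acid, 3 were lower without overlap (27.8% of all genes were), and 4 without Chd8-/- replicate 2. Dhx58, which encodes the RNA sensor LGP2, was at 20.2 and 27.4 TPM in Chd8-/- libraries against 45.5 and 83.0 TPM in WT libraries (-1.35 ± 0.39, limma adjusted p = 0.446). Ifih1 (MDA5) was at 32.6 and 23.8 TPM against 33.9 and 38.3 TPM, and Ddx58 (RIG-I), the other RNA helicase of this class, was at 112.5 and 102.2 TPM against 130.7 and 145.1 TPM. All 3 helicases of the RIG-I-like family were thus lower in both Chd8-/- libraries, with log2 fold changes of -0.36 for Ifih1 and Ddx58. For Ifih1 the nearest values of the genotypes differed by less than the replicates of either genotype. Eif2ak2, the kinase PKR that shuts off translation on binding RNA, was at 101.7 and 44.8 TPM against 97.9 and 106.5 TPM, and its lower mean came from Chd8-/- replicate 2. Zbp1, a sensor of Z-form nucleic acid that can start necroptosis, was at 258.0 and 308.9 TPM against 268.7 and 266.6 TPM. Zbp1 overlapped between the genotypes and had the highest level of these sensors in every library.

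The OAS enzymes make oligoadenylates that activate RNase L. Of the 5 family members, 4 were lower without overlap (5 without Chd8-/- replicate 2), with a median log2 fold change of -0.90 over the 5. Of all genes tested, 27.8% were lower without overlap. Oas2 was at 3.0 and 3.9 TPM in Chd8-/- libraries against 10.1 and 12.3 TPM in WT libraries (-1.46 ± 0.37, limma adjusted p = 0.430). Oas3, with the highest level of these 5, was at 37.2 and 30.2 TPM against 61.2 and 65.8 TPM (-0.90 ± 0.23, adjusted p = 0.430). Oas1a was at 10.5 and 8.4 TPM against 21.2 and 13.6 TPM. These 3 genes lie in a cluster on chromosome 5 (chr5:120730333-120907544, GRCm38) and were lower together. Oasl2, an OAS-like gene, was at 2.0 and 1.0 TPM against 2.5 and 8.3 TPM. Oasl1, which represses the translation of Irf7, was at 1.0 and 4.3 TPM against 1.3 and 2.4 TPM. Both were near the filter on low values, and the genotypes overlapped for Oasl1. Reads of Oas1a could be shared with its close copies, among them Oas1g, so its level is uncertain.

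The median of the 14 antiviral effectors was -1.0. Of them, 10 (71.43%) were lower in both Chd8-/- libraries than in both WT libraries, against 27.8% of all genes. Without Chd8-/- replicate 2 the median was -0.50, and 6 instead of 7 of the 14 were at a log2 fold change of -1 or less. Rsad2, which encodes viperin, an enzyme that makes a chain-terminating nucleotide, had the largest difference of all members with all 4 libraries, which did not hold without Chd8-/- replicate 2 or without WT replicate 1. It was at 8.3 and 2.5 TPM in Chd8-/- libraries against 31.7 and 19.7 TPM in WT libraries (-2.19 ± 0.61, limma adjusted p = 0.441). Rtp4, a protein known to restrict flaviviruses, was at 21.8 and 10.7 TPM against 61.1 and 46.7 TPM (-1.74 ± 0.42, adjusted p = 0.427). In both genes every Chd8-/- value was less than every WT value, and replicate 2 was the lower of the Chd8-/- libraries. Bst2, or tetherin, which holds budding virions at the cell surface, was at 79.4 and 47.9 TPM against 183.1 and 153.0 TPM (adjusted p = 0.406, the lowest of this role). Slfn5, a Schlafen protein, was at 15.0 and 7.9 TPM against 29.6 and 32.5 TPM (-1.42 ± 0.39, adjusted p = 0.441).

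The Ifit genes encode proteins that bind viral RNA and block its translation. Ifit3 was at 7.8 and 7.7 TPM in Chd8-/- libraries against 17.5 and 18.2 TPM in WT libraries (-1.11 ± 0.29, limma adjusted p = 0.433), the closest agreement between replicates of the genes with such a difference. Ifit1 was at 46.8 and 11.1 TPM against 58.5 and 100.9 TPM, with a wide spread within both genotypes (SE 0.75). They are neighbours on chromosome 19 (chr19:34583119-34650009, GRCm38), and reads of Ifit3 could be shared with its near copy Ifit3b. Mx1, a dynamin-like GTPase that traps viral particles, was at 16.3 and 10.7 TPM against 16.8 and 21.6 TPM. The nearest Mx1 values of the genotypes differed by less than its replicates did within either. Its paralog Mx2 was at 8.9 and 0.4 TPM against 5.8 and 13.3 TPM. Mx2 overlapped between the genotypes, and its lower mean came from Chd8-/- replicate 2, without which its log2 fold change was 0.01.

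The other effectors lay on both sides. Samhd1, which degrades deoxynucleotides, was at 473.2 and 408.8 TPM in Chd8-/- libraries against 479.1 and 545.3 TPM in WT libraries. Xaf1, which counters an inhibitor of apoptosis, was at 17.3 and 15.3 TPM against 17.9 and 25.5 TPM. Ifi44, an interferon-induced protein, was at 0.8 and 4.1 TPM against 4.8 and 4.5 TPM. These 3 were lower without overlap, but the nearest values of the genotypes differed by less than those within Chd8-/-. Ifi35 and Isg20 were the effectors that were higher in both Chd8-/- libraries. Ifi35 was at 151.4 and 143.1 TPM against 116.8 and 85.8 TPM (0.55 ± 0.23, limma adjusted p = 0.522). Isg20, an exonuclease, was at 24.7 and 36.3 TPM against 24.0 and 20.1 TPM, with nearest values closer than the replicates of either genotype. Cmpk2, a mitochondrial nucleotide kinase beside Rsad2 on chromosome 12, was at 12 and 30.4 TPM against 8.0 and 21.8 TPM, and overlapped. Rsad2 and Cmpk2, although neighbours, thus did not differ between the genotypes alike.

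ISG15 is a ubiquitin-like protein that is attached to other proteins on interferon stimulation. Isg15 was at 142.3 and 81.7 TPM in Chd8-/- libraries against 132.1 and 204.4 TPM in WT libraries, and the genotypes overlapped. Usp18, the protease that removes ISG15 and also blocks IFNAR2 signalling, was at 71.9 and 73.5 TPM against 110.8 and 145.7 TPM (-0.80 ± 0.22, limma adjusted p = 0.441). Usp18 was the clearest difference of this role, with close Chd8-/- values below both WT values. Among the ubiquitin ligases of the TRIM family, Trim30a was at 134.6 and 92.1 TPM against 159.4 and 173.1 TPM. Trim25, which activates RIG-I, was at 61.5 and 52.0 TPM against 56.9 and 86.8 TPM. Trim30a was lower without overlap and Trim25 overlapped. The neighbours Parp9, Dtx3l and Parp14 on chromosome 16 encode ADP-ribosyltransferases and a ubiquitin ligase that work together. Parp9 was at 32.5 and 24.8 TPM against 31.4 and 27.8 TPM, and Parp14 was at 58.9 and 51.6 TPM against 54.8 and 63.8 TPM. Dtx3l was at 240.6 and 233.9 TPM against 184.3 and 233.6 TPM, higher in both Chd8-/- libraries by a margin that was smaller than the spread between the WT libraries.

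The interferon-inducible GTPases attack the vacuoles of intracellular pathogens, and TAP1 carries peptides into the endoplasmic reticulum for MHC class I. All 7 genes of this role were higher in both Chd8-/- libraries than in both WT libraries, against 14.8% of all genes. The role was put together after the values were seen, so this count is a description and no test. Their median log2 fold change was 0.76. Gbp2, a guanylate-binding protein, was at 266.9 and 314.7 TPM in Chd8-/- libraries against 125.3 and 120.8 TPM in WT libraries (1.23 ± 0.18, limma adjusted p = 0.373). Gbp7 was at 199.9 and 187.1 TPM against 108.5 and 122.3 TPM (0.74 ± 0.18, adjusted p = 0.427). Gbp3 was at 31.3 and 22.5 TPM against 12.5 and 16.4 TPM (0.85 ± 0.32, adjusted p = 0.496). These guanylate-binding proteins are neighbours on chromosome 3 (chr3:142530336-142638008, GRCm38), and in each the gap between the genotypes was wider than the gap between the WT libraries. For Gbp3 it was narrower than the gap between the Chd8-/- libraries. Igtp, an immunity-related GTPase and the member with the highest level in both Chd8-/- libraries, was at 813.9 and 675.6 TPM against 454.1 and 423.2 TPM (0.76 ± 0.17, adjusted p = 0.410). Iigp1, another GTPase of that family, was at 64.5 and 55.1 TPM against 34.0 and 35.7 TPM (0.76 ± 0.22, adjusted p = 0.447). Irgm1, a regulator of the immunity-related GTPases, was at 57.7 and 74.9 TPM against 52.2 and 53.0 TPM. Irgm1 and Tap1 differed least. Tap1 was at 247.8 and 244.3 TPM against 171.5 and 235.0 TPM. The nearest values of the genotypes differed by less than the Chd8-/- replicates for Irgm1 and by less than the WT replicates for Tap1. With Chd8-/- replicate 2 left out the median was 0.87. Quantile normalization left 6 of the 7 without overlap, all but Tap1. Near-identical copies of several GTPase genes exist, and how reads were split between them is uncertain.

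**Figure D3:**
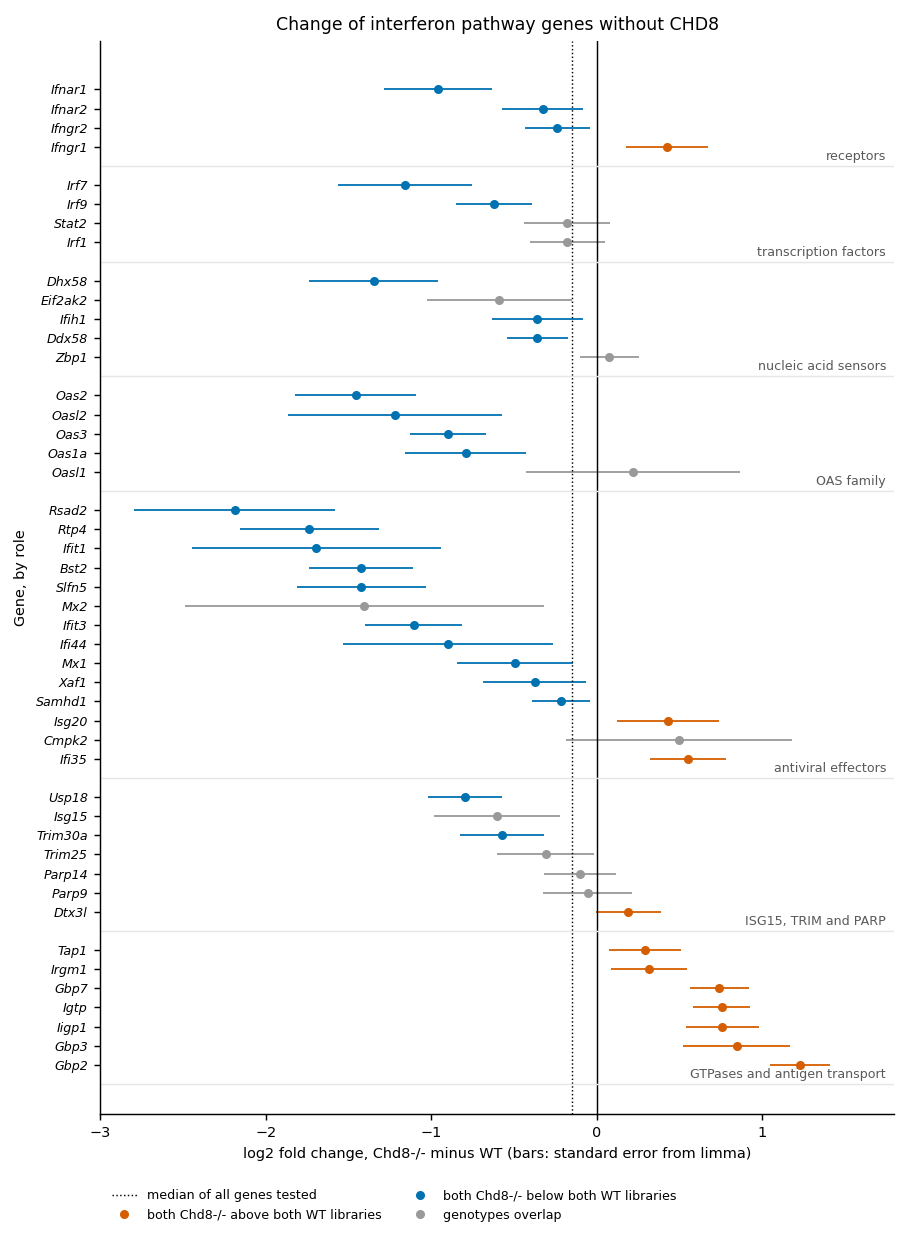
Log2 fold change of each member, Chd8-/- minus WT on the log2(TPM + 1) scale, with bars for the standard error from limma. The GTPases and Tap1 lie between 0.29 and 1.23, the antiviral effectors between -2.19 and 0.55, and the dotted line marks the median of all genes tested (-0.15).

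The contrast between these roles can also be written within each library, from the same values, so it is no further result. The mean log2(TPM + 1) of the GTPase and antigen transport genes exceeded that of the antiviral effectors and OAS enzymes by 3.12 and 3.37 in the Chd8-/- libraries and by 1.76 and 1.68 in the WT libraries. These genes were put together after their values were seen, so the difference is a description. Because it is taken within a library, it depends little on the scaling between libraries. The antiviral effectors alone had mean levels of 4.55 and 4.09 in Chd8-/- and 5.06 and 5.23 in WT libraries on that scale, and the GTPase role 7.18 and 7.12 against 6.38 and 6.51. The log2 ratio of Gbp2 to Rsad2 was 4.85 and 6.50 in Chd8-/- against 1.95 and 2.56 in WT libraries. These members were picked as the furthest apart with all 4 libraries, so their ratio had to differ.

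**Figure D4:**
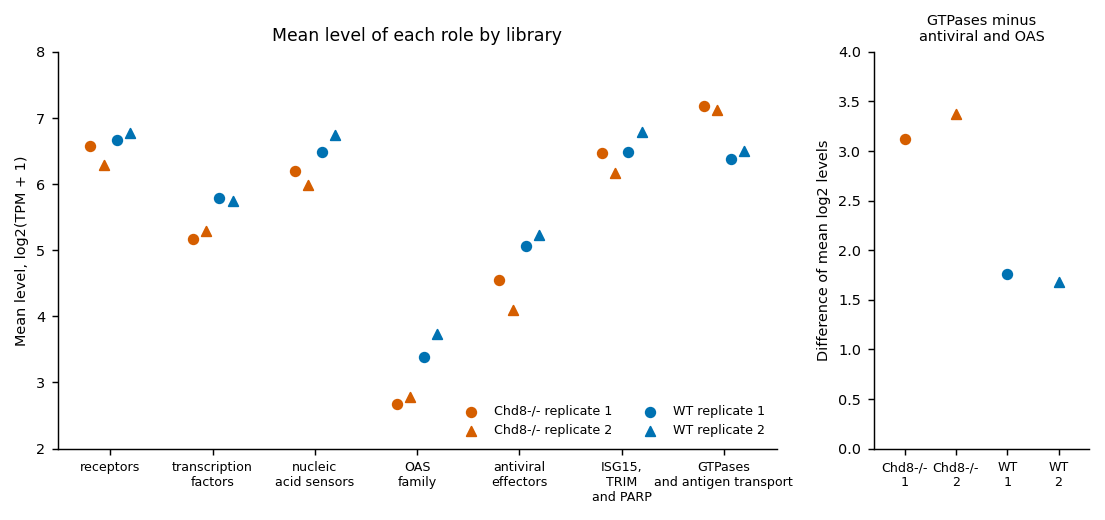
Left, mean log2(TPM + 1) of the genes of each role in each library, and right, the mean of the GTPase and antigen transport role minus that of the antiviral effectors and OAS family (log2 units). The difference is 3.12 and 3.37 in the Chd8-/- libraries and 1.76 and 1.68 in the WT libraries.

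Replicates differed less in the members than over all genes tested, which were not matched to the members by level. The median absolute difference between the Chd8-/- replicates was 0.38 on the log2 scale over the members and 0.52 over all genes tested, and between the WT replicates it was 0.23 and 0.32. Of the 46 members, 33 were lower in Chd8-/- replicate 2 than in replicate 1, and 14 were lower in WT replicate 2 than in replicate 1. Of the 15240 genes tested these were 9345 and 6391, which lean the same way. Markers of plasmacytoid dendritic cells, which make much type I interferon and express Bst2, Irf7 and Tlr7, were looked at as well. Their 7 markers summed to 16.4 and 22.1 TPM in Chd8-/- and to 32.5 and 29.5 TPM in WT libraries, of which Cox6a2 made up 0.2 and 1.2 against 6.6 and 9.7 TPM. Without Cox6a2 the sums were 16.2 and 20.9 TPM against 25.9 and 19.8 TPM and overlapped, as did Ccr9 and Pacsin1, the other markers that passed the filter. The defining marker Siglech was at 0.1 to 0.7 TPM in all 4 libraries, and 1 or 2 of the 7 markers were at 0 in each. The part of these cells in the lower members was not tested.

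Most genes of the interferons themselves were nearly absent from the libraries. Of 21 ligand genes, 2 passed the filter. Ifng, which encodes interferon-γ, was at 8.0 and 6.6 TPM in Chd8-/- libraries against 9.3 and 2.9 TPM in WT libraries, and Ifnk, a type I interferon, was at 0 and 2.1 TPM against 1.0 and 5.4 TPM. Both overlapped between the genotypes, and 1 was lower without Chd8-/- replicate 2.

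The other genes of the signal path did not follow either side as a group. The 20 genes tested for signal transduction and negative regulation had a median of -0.03. Of them, 5 were higher (25%) and 7 lower (35%) without overlap, against 14.8% and 27.8% of all genes. These counts were 11 and 7 without Chd8-/- replicate 2, and 8 and 4 after quantile normalization. The feedback inhibitors Socs3 and Cish, which are also induced by cytokines other than interferon, were higher. Socs3 was at 63.7 and 94.8 TPM against 44.5 and 45.1 TPM (0.78 ± 0.27, limma adjusted p = 0.478). Cish was at 144.8 and 153.7 TPM against 95.5 and 100 TPM (0.61 ± 0.17, adjusted p = 0.446). Socs1, the main inhibitor of interferon-γ signalling, was at 36.2 and 23.3 TPM against 25.3 and 11.8 TPM and overlapped. The kinases bound to the type I receptor were lower by thin margins. Jak1 was at 209.6 and 145.9 TPM against 212.9 and 229.3 TPM (limma adjusted p = 0.676). Tyk2 was at 13.4 and 15.6 TPM against 16.1 and 25.0 TPM (limma adjusted p = 0.691). For both, the nearest values of the genotypes differed by less than the replicates of either genotype. Irf8 was at 6.0 and 6.9 TPM against 11.4 and 16.9 TPM (-1.0 ± 0.36, adjusted p = 0.484). Irf8 is also a factor of myeloid and plasmacytoid dendritic cells.

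Of the 11 genes tested that act upstream of interferon production, 2 were higher and 2 lower without overlap (18.18% each). Among all genes, 14.8% were higher and 27.8% lower. Without Chd8-/- replicate 2 the counts were 4 higher and 5 lower. Tlr7, the endosomal receptor for single-stranded RNA, was at 3.5 and 3.0 TPM in Chd8-/- libraries against 10.7 and 12.2 TPM in WT libraries (-1.55 ± 0.35, limma adjusted p = 0.409). The kinase Ikbke was lower as well (-0.32). Mavs, the adaptor of the RNA helicases, was at 14.6 and 12.9 TPM against 9.9 and 9.5 TPM, and Mb21d1, which encodes the DNA sensor cGAS, was at 9.5 and 8.2 TPM against 4.7 and 6.5 TPM. The RNA helicases and their adaptor thus lay on opposite sides of the comparison.

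A list of 77 further interferon-stimulated genes held 17 that were higher (22.08%) and 26 that were lower (33.77%) without overlap. Over all genes these shares were 14.8% and 27.8%. The median of the list was -0.10, near the -0.15 of all genes. Without Chd8-/- replicate 2, 28 were higher and 36 lower. The genes furthest from 0 lay in both directions. Ifitm2, a membrane protein that blocks the fusion of viruses, was at 134.0 and 316.3 TPM in Chd8-/- libraries against 47.9 and 28.8 TPM in WT libraries (2.44 ± 0.52, limma adjusted p = 0.403), and its paralog Ifitm1 was at 1.8 and 3.2 TPM against 0.4 and 0 TPM. Ly6a, or Sca-1, was at 91.2 and 126.4 TPM against 55.5 and 57.5 TPM. On the lower side Ifit3b was at 2.7 and 2.6 TPM against 9.0 and 9.6 TPM, and Rnf213, a giant ubiquitin ligase, was at 24.4 and 27.4 TPM against 53.8 and 56.7 TPM. Rnf213 differed by -1.07 ± 0.22 (adjusted p = 0.403), with replicates of each genotype close together. Ms4a4c was at 24.2 and 19.0 TPM against 43.4 and 44.1 TPM.

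**Figure D5:**
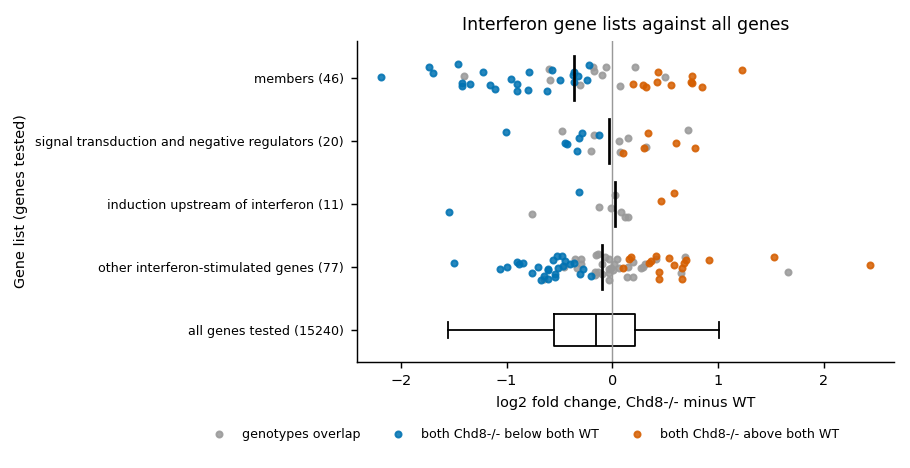
Log2 fold change (Chd8-/- minus WT) of the members and of the other interferon gene lists, with a point for each gene and a black line at the median of a list, beside all genes tested (box for the quartiles, whiskers for percentiles 5 and 95). The medians are -0.36 for the members, -0.03, 0.03 and -0.10 for the other lists from top to bottom, and -0.15 for all genes.

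Relatives of the members by gene symbol were counted over the whole table. Of 11 further GTPase genes tested, 4 were higher (Gbp5, Irgm2, Tgtp1 and Tgtp2), 2 were lower (Gbp9 and Gvin1) and 5 overlapped, with a median of 0.20, so the direction of all 7 listed genes did not extend to every gene of these families. Of 4 further Ifit genes, 3 were lower (Ifit2, Ifit3b and Ifit1bl1) and none was higher, with a median of -0.87. Of 3 further OAS genes, 2 were lower (Oas1c and Oas1g) and none was higher, with Oas1b overlapping. Of 7 further Schlafen genes, 1 was higher (Slfn3), 3 were lower (Slfn1, Slfn5os and Slfn9) and 3 overlapped, with a median of -0.37. Of 4 Ifitm genes, 2 were higher (Ifitm1 and Ifitm2) and none was lower, and of 3 further Trim30 genes 1 was lower (Trim30b) and none was higher. These families were chosen after the values of the members were seen. Of all genes tested, 14.8% were higher and 27.8% lower without overlap.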

How the data were processed

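RNA-seq values of 4 libraries (2 WT and 2 Chd8-/- mice) were used. The authors trimmed reads with Trim Galore, aligned them with STAR to mm10, counted them on RefSeq genes with featureCounts and deposited TPM rounded to 0.1. Versions in the submitters' processing notes include STAR 2.6.1e and featureCounts 1.6.2. The study names both a single-cell 3′ kit and a bulk kit, so the library type is uncertain, and the number of reads behind a TPM is unknown, so no counting interval is given. Values above 0 were listed for 19540 to 20984 genes a library.

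Of 35869 rows, 4 under repeated names were dropped. The 15240 genes that reached 1 TPM in at least 2 libraries were compared as log2(TPM + 1) by limma (version 3.58.1, R version 4.3.3), using eBayes with a trend, a two-sided test, adjustment by Benjamini-Hochberg over these genes and calls at 0.05. The script was tested on simulated data. Each library came from 1 mouse by the study's methods. The members and the gene lists were chosen with earlier results of these data known. Every member is named. Of the ligands and signal genes with values above 0, only some are named, and most signal genes are only counted. Of the other lists up to 6 genes a list with the largest change without overlap are named. Others are said to be chosen later. 1 gene of the signal list is not reported here. Alternatives were other pseudocounts, filters, eBayes without trend, a block for replicate number, quantile normalization and each library left out. ATAC-seq and CHIP-seq peak tables (mm39) were not used, since the annotation in use was GRCm38. Python 3.11.15, pandas 2.3.3, numpy 2.4.6 and matplotlib 3.10.9 were used.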

Additional observations from a re-analysis of the deposited data

How the results depend on the processing

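The 46 members kept 0 calls at an adjusted p of 0.05 under every alternative run. Members with a log2 fold change of 1 or more numbered 1, and 2 after quantile normalization and 1 to 3 when each library was left out (3 without WT replicate 2, 2 without either Chd8-/- replicate). Members at -1 or less numbered 11, and 6 with a pseudocount of 5 TPM. Zbp1 turned to -0.0174 and Parp9 to 0.0595 after quantile normalization, which moved the median of all genes from -0.15 to 0.00 and left 9 members higher and 24 lower without overlap. With each library left out, the log2 fold change spanned -0.37 to 0.0172 for Irf1, -0.0528 to 0.21 for Zbp1, -0.48 to 0.92 for Oasl1, -2.82 to 0.00569 for Mx2, -0.17 to 1.17 for Cmpk2, -0.24 to 0.13 for Parp9 and -0.21 to 0.00854 for Parp14, and these 7 of the 46 changed sign. A sign cannot change in this way for the 35 members without overlap. The median of the members then ranged from -0.47 to -0.21, members lower without overlap from 25 to 31 and higher from 11 to 14, counts that grow because fewer libraries have to be separated. The OAS median lay below that of the antiviral effectors without either Chd8-/- replicate, after quantile normalization and with a pseudocount of 5 TPM, and above it otherwise. Same-numbered libraries did not deviate together (correlation -0.01), which cannot show whether the mice were paired by design. With the replicate block limma called 0 genes, and the lowest adjusted p over all genes was 0.552. A mean TPM of at least 5 left 43 members and called 2 genes, neither a member. Requiring a further A after the ISRE letters left 18 of 20 members. The planned ATAC and CHIP alternatives were not run. With 2 libraries a genotype and reads behind a TPM unknown, low members such as Oasl1, Oasl2, Ifi44 and Mx2 are the least certain; the cause of each change above was not tested.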
